A study of Mus musculus with 96 samples.

Results

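The measurements described here compared the hepatic response to a high-fat diet between wild-type (Wt) mice and mice with a heterozygous knockout of Gaa (HetKO). Gaa encodes lysosomal acid alpha-glucosidase, the enzyme that releases glucose from glycogen inside lysosomes. The compared quantity was the diet × genotype interaction of each gene target, which is the HFD minus LFD difference in HetKO minus the same difference in Wt. It was formed from all 96 areas of illumination (AOIs) of a GeoMx whole-transcriptome assay, in which barcodes released by light from a selected patch of tissue are sequenced and counted, and all 7394 gene targets were kept. The 4 groups were Wt on a purified low-fat diet (LFD), Wt on a purified high-fat diet (HFD), HetKO on LFD and HetKO on HFD, with 4 male mice per group. All 16 mice were about 8 weeks old when the diets began and stayed on them for 15 weeks. The HetKO line carries a constitutive disruption of 1 Gaa copy in the whole body, made by CRISPR/Cas9 placement of LoxP sites around part of the gene and backcrossed to C57BL/6, so the loss is not limited to hepatocytes. Liver sections 5 µm thick, formalin-fixed and paraffin-embedded, gave 3 periportal and 3 perivenous AOIs per mouse. The AOIs were placed by staining for E-cadherin and Cyp2e1, so the genes of these proteins are no finding between zones.

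The mouse was the replicate. The log2(normalized count + 1) values of the 3 AOIs of a mouse and zone were averaged, and a level quoted for a mouse is the geometric mean normalized count of those AOIs. The zones of a mouse share the animal and the section and are not independent of each other. All LFD sections lay on 1 slide and all HFD sections on the other, so diet and slide cannot be told apart, while each of the 2 slides held both genotypes. In bulk areas such as these, fewer cells of a type and less RNA per cell cannot be told apart.

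Hepatocytes along the portal to central axis of the liver lobule divide their work. Urea synthesis, gluconeogenesis and much of amino acid breakdown are concentrated near the portal tract, whereas drug oxidation and bile acid synthesis are concentrated near the central vein. Glycogen is broken down mostly in the cytosol, and a smaller part reaches the lysosome by glycophagy, where acid alpha-glucosidase acts. Feeding a high-fat diet is known to alter the abundance of lipid, glucose and xenobiotic metabolism genes in mouse liver.

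Sult2a8, Upp2 and Acsl1 were given as markers. Sult2a8, Acsl1 and Nr1i3 were among the 10 targets with the most positive interaction statistic of a zone, as listed below, whereas Upp2 was not. Sult2a8 is a cytosolic sulfotransferase of mouse liver that acts on bile acids. Upp2 cleaves uridine to uracil. Acsl1 activates long-chain fatty acids to their acyl-CoA esters. Nr1i3 is the constitutive androstane receptor, a nuclear receptor that controls drug-metabolising enzymes. Their proximal promoters are shown because the values of these genes carry most of the description below, 300 bases each from 250 before to 50 after the first start that the RefSeq promoter table lists for the gene (GRCm38.p6, the mm10 build), 5′ to 3′ on the gene's strand. That start need not be the outermost end of the gene, and Sult2a8, Upp2 and Acsl1 each have a further start in the table, which is not shown. Sult2a8 lay at chr7:14446538-14446837 on the minus strand, Upp2 at chr2:58567084-58567383 and Acsl1 at chr8:46470787-46471086 on the plus strand, and Nr1i3 at chr1:171213720-171214019 on the plus strand. Capitals mark the letters of a searched motif, TATAAA on the opposite strand (read here as TTTATA) in Sult2a8 and the E-box CACGTG in Nr1i3.
Sult2a8: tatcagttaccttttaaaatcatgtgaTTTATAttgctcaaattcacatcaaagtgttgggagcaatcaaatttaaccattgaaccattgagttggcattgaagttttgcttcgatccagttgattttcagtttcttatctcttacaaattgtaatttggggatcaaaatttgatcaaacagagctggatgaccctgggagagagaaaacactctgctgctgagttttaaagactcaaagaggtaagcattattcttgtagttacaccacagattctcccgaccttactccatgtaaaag
Upp2: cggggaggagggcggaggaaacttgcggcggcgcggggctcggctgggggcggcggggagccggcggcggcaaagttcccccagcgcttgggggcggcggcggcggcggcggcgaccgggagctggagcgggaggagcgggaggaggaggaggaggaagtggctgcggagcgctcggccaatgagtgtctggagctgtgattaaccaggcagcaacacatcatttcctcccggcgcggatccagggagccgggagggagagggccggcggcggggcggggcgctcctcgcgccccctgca
Acsl1: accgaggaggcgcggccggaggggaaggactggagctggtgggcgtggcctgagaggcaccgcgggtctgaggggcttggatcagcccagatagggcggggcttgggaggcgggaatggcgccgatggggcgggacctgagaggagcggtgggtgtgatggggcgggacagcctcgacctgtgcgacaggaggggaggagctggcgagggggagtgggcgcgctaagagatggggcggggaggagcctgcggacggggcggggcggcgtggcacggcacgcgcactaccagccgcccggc
Nr1i3: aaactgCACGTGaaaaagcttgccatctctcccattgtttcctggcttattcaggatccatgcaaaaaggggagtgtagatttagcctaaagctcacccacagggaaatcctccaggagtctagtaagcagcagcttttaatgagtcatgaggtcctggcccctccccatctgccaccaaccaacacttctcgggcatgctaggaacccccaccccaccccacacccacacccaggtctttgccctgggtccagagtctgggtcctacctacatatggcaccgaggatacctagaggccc
Of the 20 targets with the most positive interaction in either zone or given as markers, 17 matched a promoter. TATAAA, on either strand, was present in 3 of these 17 (Hpgd, Prox1 and Sult2a8), against 13.6% of 32851 mouse promoters of the same length and 8.08% of the 5966 promoters that matched a target. The E-box CACGTG was in 1 of 17, against 7.15% of all promoters and 10.9% of those of targets. TTANGTAA, the D-box bound by PAR bZIP factors such as Dbp, was in 1 of 17 (Sult1a1), against 2.32% and 1.66%. CAAAGTCCA, a sequence of the Hnf4a type, was in 0 of 17, against 0.475% and 0.453%. A match describes the letters of the window only.

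Each AOI had between 60874 and 1772443 reads after duplicate removal (median 536938) and between 118 and 788 nuclei. Alb, the defining hepatocyte transcript, was above the limit of quantitation (LOQ, the level that separates a target from the negative probes) in all 48 AOIs of either zone. Cyp2e1 was at 1003 to 8355 in perivenous areas and at 58.7 to 455 in periportal areas. Of the markers of other cells, 10 of 19 Kupffer cell, 10 of 19 stellate cell, 12 of 17 endothelial and 0 of 16 lymphocyte genes were measured. In Wt the summed periportal Kupffer cell signal was 507 to 689 on LFD and 436 to 767 on HFD, in HetKO it was 536 to 754 on LFD and 586 to 808 on HFD, and the 4 ranges overlapped. For the 2 measured erythrocyte genes the summed perivenous signal of Wt mice was 199 to 242 on LFD and 87.7 to 122 on HFD, without overlap, and that of HetKO mice was 96.8 to 210.5 on LFD and 100.2 to 167 on HFD, with overlap. Hba-a1, an alpha globin, had a perivenous interaction of 1.26 ± 0.42 (limma adjusted p = 0.797), and the part of these cells in the results was not tested. The share of targets above the LOQ was 16.6%, 17.6% and 12.7% in periportal areas of Wt HFD mice 2, 3 and 4 and 45.2% in Wt HFD mouse 1, against 34.5% to 45.9% in HetKO HFD. In perivenous areas it was 15.5%, 15% and 15.9% in Wt HFD mice 2, 3 and 4 and 29.6% in Wt HFD mouse 1, against 35.5% to 45.5% in HetKO HFD. Wt HFD mouse 1 stood apart from its group. Values without it or with it alone are given beside many of the results, though not always both. HetKO LFD mouse 1 had a sequencing saturation of 75.3% and 66.6% in its zones. The library names of 5 of its AOIs carried a code that differed from that of the other AOIs.

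Periportal Gaa was at 70.6, 67.2, 80.2 and 73 normalized counts in the Wt LFD mice and at 54.4, 45.6, 55.1 and 38.8 in the Wt HFD mice. It was at 58.9, 51.7, 40.8 and 50.1 in HetKO LFD and at 39.8, 55.5, 42.6 and 27.7 in HetKO HFD. All HetKO LFD mice were below all Wt LFD mice, whereas the genotypes overlapped on HFD. The HFD difference was −0.59 ± 0.18 (log2, SE) in Wt and −0.31 ± 0.18 in HetKO. The interaction of Gaa was 0.28 in periportal and 0.30 in perivenous areas, with p = 0.414 and p = 0.271 by a two-sided exact permutation test over 4900 regroupings of the mice within diet (smallest possible p = 2.04e-04). Where the Gaa probe lies relative to the disrupted stretch is not given in the sources used here, and its values were not whole multiples of a read in 10 of 96 AOIs.

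No target passed the interaction test. With limma over all 7394 targets and Benjamini-Hochberg adjustment, 0 targets (0%) were called in periportal areas, where the smallest adjusted p was 0.457, and 0 (0%) in perivenous areas, where it was 0.797. At an unadjusted p under 0.05, 326 targets (4.41%) had a higher and 477 (6.45%) a lower value in periportal areas, and 250 (3.38%) a higher and 165 (2.23%) a lower value in perivenous areas. EdgeR on recovered reads called 0 targets too, and its unadjusted p was under 0.05 for 591 periportal and 598 perivenous targets. DESeq2 on the same reads called 0, and the corresponding counts were 551 and 511. In simulated data with the same groups of mice, limma recovered 99% of targets with a 4-fold and 61% of targets with a 2-fold interaction in periportal areas. Among the unchanged targets it called 6. The simulated counts held no diet effect and no mouse set apart from its group, so these shares need not hold for the measured data. The median interaction over all targets was −0.09 in periportal and −0.04 in perivenous areas.

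In the values as deposited, HFD differences had mostly the same sign in the genotypes and were smaller in size in HetKO. In Wt, 1163 targets (15.7%) fell and 1848 (25%) rose in periportal areas, and 1258 (17%) fell and 1632 (22.1%) rose in perivenous areas. In HetKO the same model called 2 targets (0.0270%) in periportal areas, Egfr and Ces3b, and 2 (0.0270%) in perivenous areas, Ces3b and Got1, all of which fell. Without Wt HFD mouse 1 the Wt counts were 3724 and 3826 in the zones, against 3011 and 2890 with it, and with that mouse as the only Wt HFD sample they were 1 and 7, against 10 and 338 in HetKO. Scaled by nuclei, 71 targets were called in Wt and 233 in HetKO in periportal areas, where the median HFD difference was 0.06 in Wt and −0.79 in HetKO. The counts depend on the spread that the model pools over groups. When each comparison was fitted on its own 8 mice, 2108 targets (28.5%) were called in Wt and 598 (8.09%) in HetKO in periportal areas, and 1596 (21.6%) in Wt and 1609 (21.8%) in HetKO in perivenous areas. Across the 7394 targets, the HFD differences of Wt and HetKO, which share no mice, correlated with r = 0.78 in periportal and 0.84 in perivenous areas, and 80.1% and 84.1% of targets had the same sign. Targets are not independent replicates, and slides were shared by the genotypes. The median size of the HFD difference was 0.36 in Wt and 0.19 in HetKO in periportal areas, and 0.36 and 0.21 in perivenous areas.

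**Figure D1:**
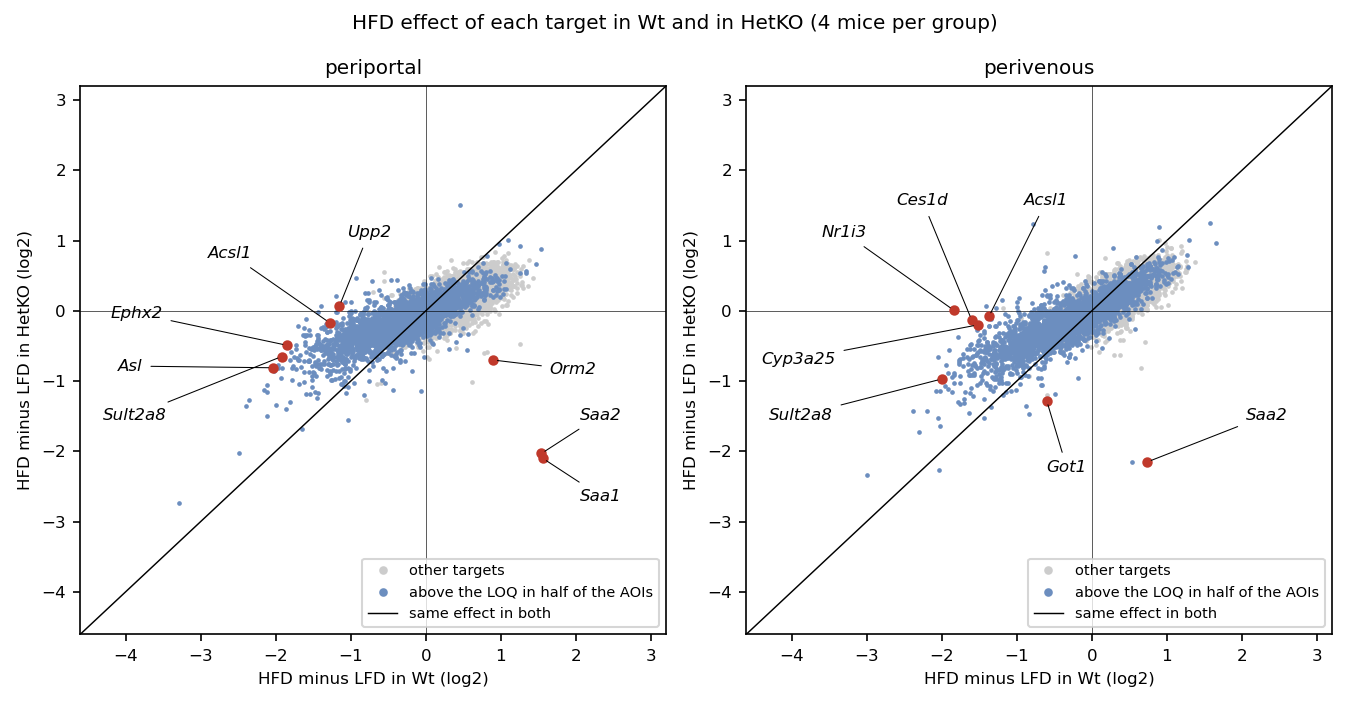
HFD minus LFD difference of each target in Wt (horizontal axis, log2) and in HetKO (vertical axis, log2), with blue points for targets that exceeded the LOQ in 24 or more of the 48 AOIs, grey points for the others and red points for named targets. Most points lie in the quadrants of shared sign and closer to 0 in HetKO than in Wt, with correlations of 0.78 and 0.84.

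The sign of the interaction followed the level of the target. Among the 1479 targets with the highest mean level, the median HFD difference in periportal areas was −0.64 in Wt and −0.28 in HetKO, with a median interaction of 0.33. Among the 1479 targets with the lowest level, it was 0.35 in Wt and 0.13 in HetKO, with a median interaction of −0.24. In perivenous areas the corresponding interactions were 0.31 and −0.14. Of the 2883 targets that exceeded the LOQ in 24 or more of the 48 periportal AOIs, 305 (10.6%) had a higher value at an unadjusted p under 0.05 and 49 (1.70%) a lower one, whereas of the other 4511 targets 21 (0.466%) had a higher and 428 (9.49%) a lower one. In perivenous areas the shares were 7.48% higher and 0.537% lower among 2982 such targets, and 0.612% and 3.38% among the other 4412. The mean share of targets above the LOQ was lower on HFD than on LFD in both genotypes. On LFD it was 50.3% in Wt and 62.2% in HetKO in periportal areas, and 55.4% and 63.6% in perivenous areas. The HFD values are given above by mouse. The interaction of this share was 4.29 percentage points in periportal areas (exact permutation p = 0.746) and 13.2 in perivenous areas (exact permutation p = 0.288). Without Wt LFD mouse 3 the periportal interaction of the share was −2.50. The part of this share in the result was not tested. The median signal over the negative probe had a periportal interaction of 0.637 (exact permutation p = 0.0445, adjusted p = 0.445 over the 10 tests of technical measures). Without Wt HFD mouse 1 the exact permutation p was 0.00898 (adjusted p = 0.0898), and without Wt LFD mouse 1 it was the same. In perivenous areas the interaction of this signal was 0.239 (exact permutation p = 0.380), and its part in the result was not tested either.

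**Figure D2:**
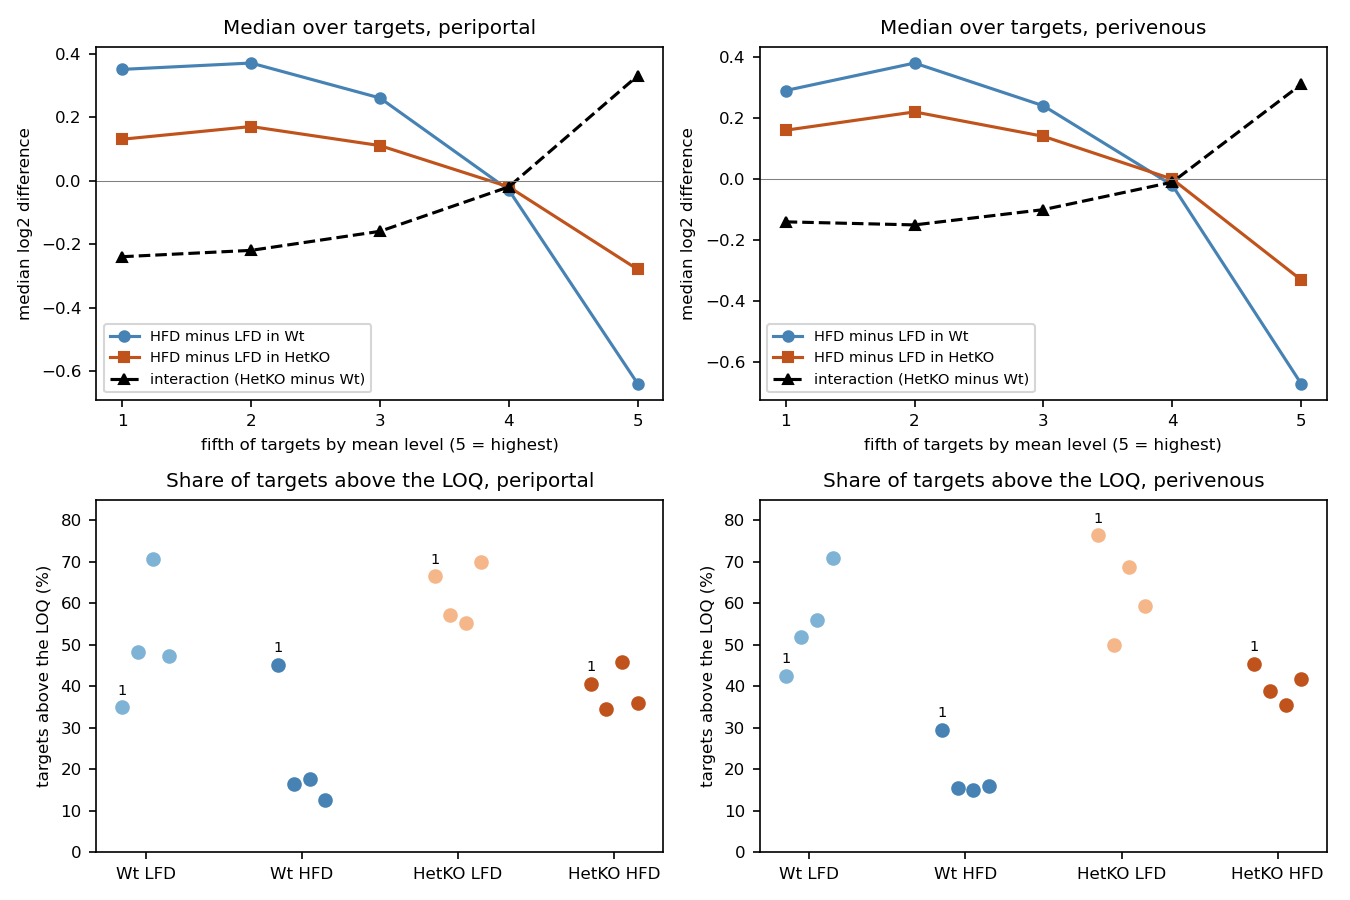
Upper panels, median HFD difference in Wt and HetKO and median interaction (log2) for groups of targets ordered by mean level. Lower panels, share of targets above the LOQ (%) in each mouse, with mouse 1 of each group numbered. The interaction runs from −0.24 to 0.33 in periportal areas, and Wt HFD mouse 1 (45.2%) stands above the other Wt HFD mice (12.7% to 17.6%).

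The number of called targets depended on Wt HFD mouse 1 and on the model. Without it, 270 targets (3.65%) were called in periportal areas, 212 with a higher and 58 with a lower interaction, and 60 (0.811%) in perivenous areas, all with a higher one. Leaving out any of the other 15 mice gave 0 calls in either zone. With that mouse as the only Wt HFD sample, whose spread was taken from the other groups, 0 targets (0%) were called in periportal and 2 (0.0270%) in perivenous areas. With a weight per mouse estimated from the data, where Wt HFD mouse 1 received the lowest weights (0.29 and 0.22), 108 (1.46%) and 18 (0.243%) targets were called. A fit on all AOIs with the mouse as a random block called 124 (1.68%) and 26 (0.352%) targets.

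Sult2a8 had the most positive zone-averaged interaction statistic (1.15 ± 0.24). In periportal areas it was at 198, 255, 199 and 229.9 in Wt LFD and at 40, 84.8, 43 and 73 in Wt HFD. In HetKO it was at 297, 211, 182 and 167 on LFD and at 134, 104, 119 and 184 on HFD. Every HetKO HFD mouse was above every Wt HFD mouse, as held for 2.11% of all targets in that zone, whereas the genotypes overlapped on LFD. Sult2a8 fell by 1.92 ± 0.23 (log2, SE) in Wt (limma adjusted p = 7.29e-05), and the difference in HetKO was −0.65 ± 0.23 (adjusted p = 0.202). The interaction was 1.26 ± 0.33, with adjusted p = 0.457 over all targets, 1.10 without Wt HFD mouse 1 (adjusted p = 0.0508) and 1.77 with that mouse alone.

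In perivenous areas, where Sult2a8 was more abundant, the Wt mice were at 441, 596, 524 and 752 on LFD and at 212, 119.8, 146 and 106 on HFD. The HetKO mice were at 678, 543, 657 and 437 on LFD and at 278, 339.8, 192 and 389.5 on HFD. Here HetKO HFD mouse 3 lay below Wt HFD mouse 1, and all HFD mice were below all LFD mice of their genotype. The interaction was 1.03 ± 0.33 (limma adjusted p = 0.797), from −2.0 in Wt and −0.97 in HetKO. Averaged over zones, Sult2a8 was 1.12 (log2) higher in HetKO than in Wt on HFD, the single target called for that contrast (0.0135% of targets, limma adjusted p = 0.0296). With 1 mouse left out in turn the difference stayed between 0.97 and 1.24 and its adjusted p ranged from 5.95e-04 to 0.247, above 0.05 for 10 of the 16 mice. The adjusted p was also above 0.05 after quantile normalization (0.0669), with the replicate block (0.0968) and scaled by nuclei (1.000). Without Wt HFD mouse 1 it was 1 of 1251 targets called. Sult2a8 has close paralogs in the mouse genome, so its counts may hold reads of related genes.

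Upp2 was at 101, 132, 64.6 and 187 in periportal areas of Wt LFD and at 58.5, 63.7, 32.4 and 53.1 in Wt HFD. It was at 70.5, 99.1, 84.9 and 182 in HetKO LFD and at 96.8, 135, 102 and 98.6 in HetKO HFD. All Wt HFD mice were below all other mice, and the HetKO mice overlapped between diets. Upp2 fell by 1.15 ± 0.29 in Wt (limma adjusted p = 0.00445), and the difference in HetKO was 0.07 ± 0.29. The interaction was 1.22 ± 0.41 in periportal areas (adjusted p = 0.457) and 1.29 without Wt HFD mouse 1 (adjusted p = 0.0770). In perivenous areas it was 0.44 ± 0.28, with −0.87 in Wt and −0.42 in HetKO.

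Acsl1 was at 153, 152, 205 and 148 in periportal areas of Wt LFD and at 99.1, 60, 55.8 and 58.2 in Wt HFD. It was at 122, 131, 132 and 219.5 in HetKO LFD and at 132, 156, 107 and 132 in HetKO HFD. Wt HFD mice 2 to 4 were clustered at the lowest levels, with mouse 1 above them and still below every other mouse. The interaction was 1.12 ± 0.29 (limma adjusted p = 0.457), from −1.28 in Wt and −0.17 in HetKO. It was 1.31 without Wt HFD mouse 1 (adjusted p = 0.0104) and 0.55 with that mouse alone. In perivenous areas Acsl1 was at 175, 204, 273 and 268 in Wt LFD, at 151, 80.5, 70.7 and 65.4 in Wt HFD, at 168, 189.6, 162 and 265 in HetKO LFD and at 210.0, 211, 126 and 195 in HetKO HFD. The perivenous HFD groups overlapped, since Wt HFD mouse 1 lay above HetKO HFD mouse 3. The perivenous interaction was 1.29 ± 0.34 (adjusted p = 0.797). It was 1.56 without Wt HFD mouse 1 (adjusted p = 0.0159) and 0.50 with that mouse alone.

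**Figure D3:**
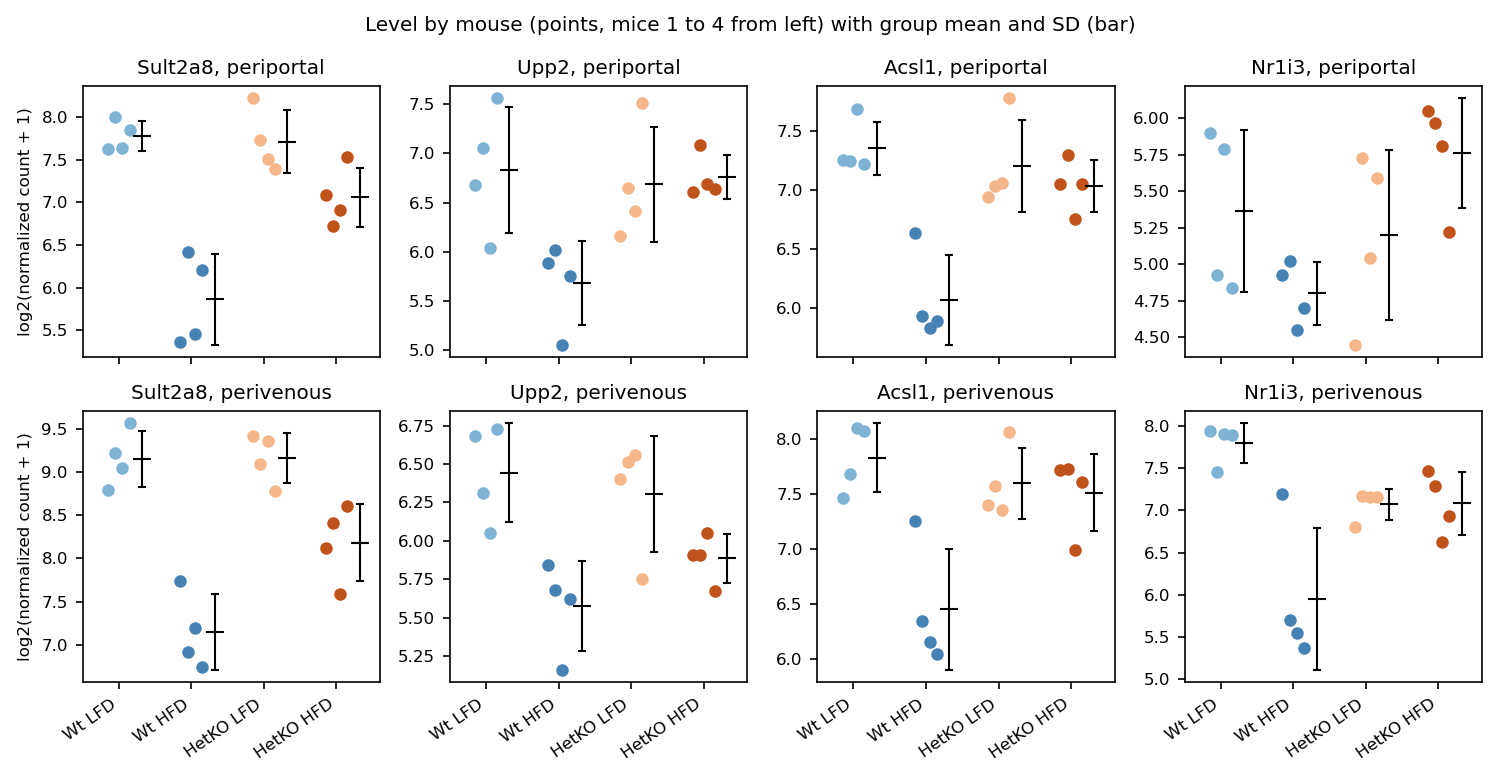
Level of Sult2a8, Upp2, Acsl1 and Nr1i3 in each mouse (points, log2 of the normalized count + 1, mice 1 to 4 from left) with the group mean and SD (bar), for periportal (upper) and perivenous (lower) areas. In periportal areas the Wt HFD mice lie lowest for Sult2a8 (40 to 84.8 normalized counts), Upp2 (32.4 to 63.7) and Acsl1 (55.8 to 99.1).

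The 10 targets with the most positive periportal interaction statistic, among those that exceeded the LOQ in 24 or more of the 48 AOIs, were N4bp2l1, Asl, Sult1a1, Acsl1, Sult2a8, Prox1, Pbld2, Ephx2, Ahcy and Hpd. They were chosen by this statistic, so their values are a description. Their interactions ranged from 0.78 to 1.37 on the log2 scale. All 10 fell in Wt, against 15.7% of all targets, and 0 were called in HetKO, against 0.0270% of all targets. In 6 of the 10 every HetKO HFD mouse was above every Wt HFD mouse, against 2.11% of all targets, and in 9 of the 10 Wt HFD mouse 1 was the highest of its group.

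Ephx2, the soluble epoxide hydrolase, had the largest of these 10 interactions. It was at 331, 439, 714 and 548 in Wt LFD, at 255, 103, 113 and 109 in Wt HFD, at 413, 357, 407 and 542 in HetKO LFD and at 254, 329, 275 and 365 in HetKO HFD. Wt HFD mice 2 to 4 lay far below all others, and Wt HFD mouse 1 was level with HetKO HFD mouse 1. The interaction was 1.37 ± 0.36 with all mice, 1.67 without Wt HFD mouse 1 (limma adjusted p = 0.00897) and 0.45 with that mouse alone. Asl, the argininosuccinate lyase of the urea cycle, was at 397, 413, 391 and 725 in Wt LFD, at 169.5, 117, 81.5 and 97.7 in Wt HFD, at 401, 334, 407 and 493 in HetKO LFD and at 179.7, 266, 259 and 229.9 in HetKO HFD. It was lower on HFD in every mouse of either genotype, and all HetKO HFD mice were above all Wt HFD mice. Its interaction was 1.23 ± 0.31, from −2.04 in Wt (adjusted p = 4.86e-05) and −0.81 in HetKO (adjusted p = 0.171). It was 1.43 without Wt HFD mouse 1 (adjusted p = 0.0105) and 0.64 with that mouse alone.

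Prox1, a homeobox factor of hepatocytes, was at 88.7, 125, 127 and 128 in Wt LFD, at 83.8, 71.6, 68.6 and 69 in Wt HFD, at 103, 102, 104 and 102 in HetKO LFD and at 101, 121, 107 and 120.2 in HetKO HFD. The HetKO mice showed no separation by diet, and the Wt HFD mice lay below all other mice. Its periportal interaction was 0.78 ± 0.20, against 0.01 ± 0.25 in perivenous areas. For the other targets of this set, Sult1a1, a phenol sulfotransferase, had an interaction of 1.29 ± 0.33, Hpd, which breaks down tyrosine, 1.24 ± 0.34, and Ahcy, which hydrolyses S-adenosylhomocysteine, 1.20 ± 0.32. Those of N4bp2l1 and Pbld2 were 1.06 ± 0.26 and 0.98 ± 0.25. Scaled to nuclei instead of to the third quartile, the median of all periportal targets moved to −0.84, and Prox1 was at 0.01, which is above that median.

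In perivenous areas the 10 most positive targets were Nr1i3, Srsf5, Hpgd, Dbp, Acsl1, Stab2, A1cf, Cyp3a25, Srebf1 and Ces1d, with interactions from 0.88 to 1.85. All 10 fell in Wt, against 17% of all targets, and 0 were called in HetKO, against 0.0270% of all targets. In 4 of the 10 the HFD groups did not overlap, against 3.38% of all targets with HetKO higher, and Wt HFD mouse 1 was the highest of its group in all 10. These targets were chosen by their interaction statistic, which contains the HFD difference between genotypes, so their values are a description.

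Nr1i3 was at 244, 174, 240.1 and 236 in perivenous areas of Wt LFD and at 146, 51.1, 46 and 40.4 in Wt HFD. It was at 110.3, 143, 142 and 142 in HetKO LFD and at 177, 155, 98 and 122 in HetKO HFD. The LFD genotypes did not overlap, with HetKO below Wt, while the HetKO mice overlapped between diets. Nr1i3 fell by 1.84 ± 0.28 in Wt (limma adjusted p = 3.97e-04), and the difference in HetKO was 0.01 ± 0.28 (adjusted p = 0.984). The interaction was 1.85 ± 0.40 (adjusted p = 0.797), 2.26 without Wt HFD mouse 1 (adjusted p = 8.29e-05) and 0.61 with that mouse alone. In periportal areas Nr1i3 was at 20.9 to 65.3 and above the LOQ in 19 of 48 AOIs, with an interaction of 1.12 ± 0.38.

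Srsf5, an SR splicing factor, was at 261, 253, 227 and 306 in Wt LFD, at 170.3, 104, 97.2 and 74.4 in Wt HFD, at 243, 232, 209 and 237 in HetKO LFD and at 211, 199.8, 194 and 192 in HetKO HFD. All HetKO HFD mice were above all Wt HFD mice, and the interaction was 1.08 ± 0.26, and 1.30 without Wt HFD mouse 1 (limma adjusted p = 0.00487). Dbp, a clock-output transcription factor, was at 131, 111, 173 and 217 in Wt LFD, at 87, 67.8, 55.2 and 58 in Wt HFD, at 67.9, 98.9, 102 and 184 in HetKO LFD and at 133, 136, 102 and 104 in HetKO HFD. The Wt HFD mice were below all HetKO HFD mice, and the HetKO LFD mice spanned the widest range. The interaction of Dbp was 1.35 ± 0.35 in perivenous and 1.40 ± 0.43 in periportal areas.

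Srebf1, which encodes the lipogenic factor SREBP-1, was at 153, 100.1, 152 and 297 in Wt LFD, at 127, 49.2, 42.7 and 49.4 in Wt HFD, at 102, 126, 87 and 183 in HetKO LFD and at 121, 127, 113 and 143 in HetKO HFD. Wt HFD mouse 1 was level with the HetKO HFD mice, and the other Wt HFD mice lay below them. The interaction was 1.48 ± 0.44 with all mice and 0.42 with Wt HFD mouse 1 alone. The interactions of Ces1d, a triacylglycerol-hydrolysing carboxylesterase, and Cyp3a25, a drug-oxidising cytochrome P450, were 1.47 ± 0.44 and 1.32 ± 0.38. Hpgd, which inactivates prostaglandins, was at 0.90 ± 0.23, and A1cf, an RNA-binding partner of the Apob editing enzyme, at 0.94 ± 0.27. Stab2, a scavenger receptor of sinusoidal endothelium, was at 63.2, 56.6, 51.8 and 54.4 in Wt LFD, at 48.6, 26.6, 39.3 and 44.3 in Wt HFD, at 47.3, 50, 46.9 and 48.9 in HetKO LFD and at 60.4, 62, 77.6 and 50.1 in HetKO HFD. The groups did not overlap in either genotype or on either diet, and the order of the diets was opposite. The HFD difference was −0.53 ± 0.17 in Wt (limma adjusted p = 0.0195) and 0.35 ± 0.17 in HetKO (adjusted p = 0.225), with an interaction of 0.88 ± 0.24. Summed endothelial markers, a group to which it belongs, were at 468 to 664 in Wt HFD and at 539.9 to 752 in HetKO HFD in that zone, and their part in the value of Stab2 was not tested.

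**Figure D4:**
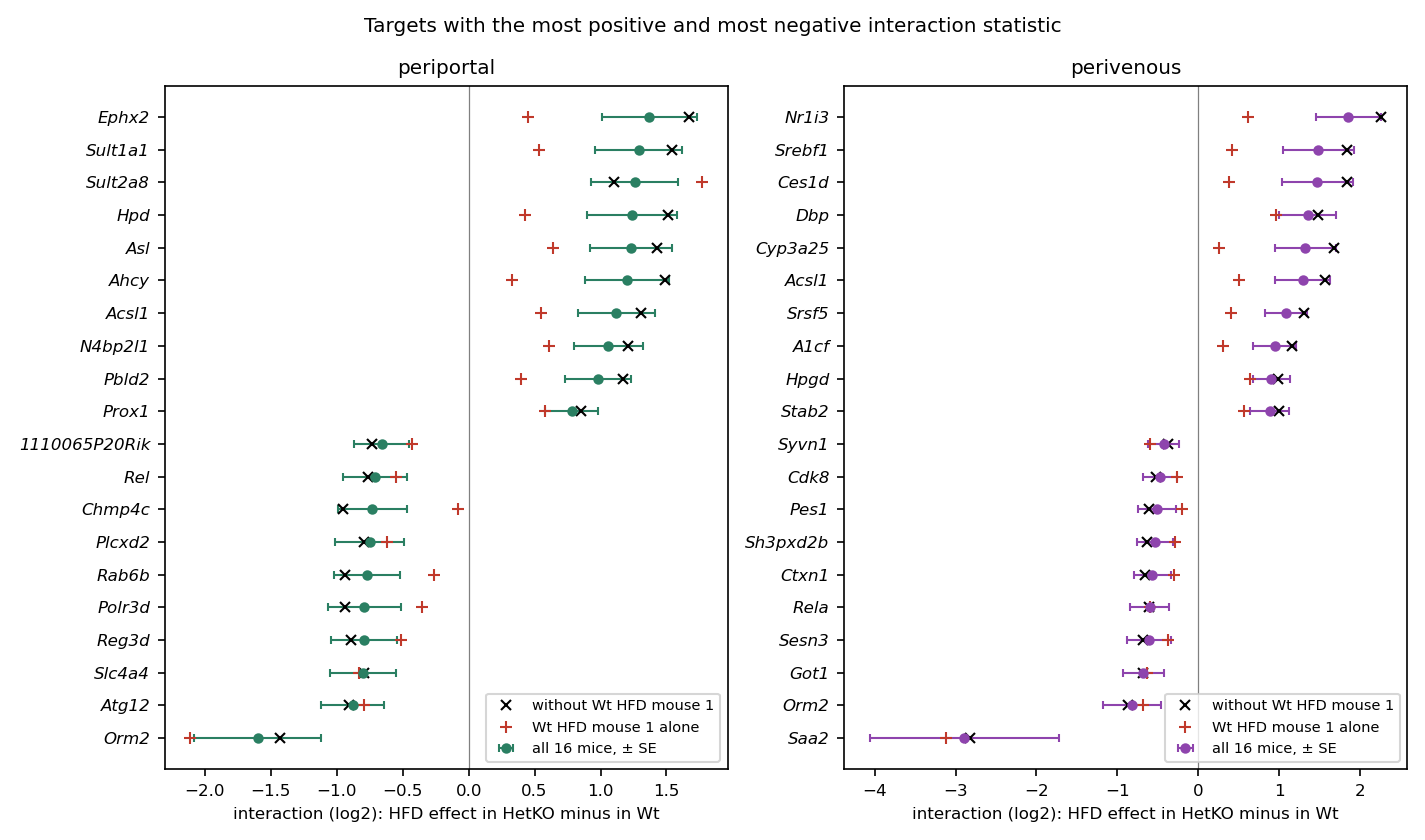
Interaction (log2, point and SE) of the 10 targets with the most positive and the 10 with the most negative statistic in each zone, with the value without Wt HFD mouse 1 (cross) and with that mouse as the only Wt HFD sample (plus). Most positive values move closer to 0 with Wt HFD mouse 1 alone, as for Nr1i3 from 1.85 to 0.61, while Sult2a8 in periportal areas moves from 1.26 to 1.77.

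The most negative periportal targets were Atg12, Orm2, Slc4a4, Reg3d, 1110065P20Rik, Rab6b, Rel, Plcxd2, Polr3d and Chmp4c, with interactions from −1.60 to −0.66. All 10 rose in Wt, against 25% of all targets, and 0 were called in HetKO, against 0.0270% of all targets. They were chosen by their interaction statistic, so these values are a description. Apart from Orm2, no member exceeded the 107 normalized counts of Rab6b in any mouse. The part of the background signal in these rises was not tested. With the signal over the negative probe as covariate, the interaction was −0.27 for Rab6b, −0.31 for Reg3d and −0.44 for Rel. It was −0.48 for 1110065P20Rik, −0.79 for Slc4a4, −0.80 for Atg12 and −1.94 for Orm2. Atg12, a ubiquitin-like protein of autophagosome formation, was at 54.7, 44.8, 42 and 41 in Wt LFD, at 62.7, 61.6, 73.4 and 71.2 in Wt HFD, at 59.5, 56, 60.8 and 46.1 in HetKO LFD and at 50.2, 52.3, 46.5 and 30.2 in HetKO HFD. Every Wt HFD mouse was above every other mouse. The interaction of Atg12 was −0.88 ± 0.24 (limma adjusted p = 0.457). It was −0.91 without Wt HFD mouse 1 (adjusted p = 0.0415) and −0.79 with that mouse alone. In perivenous areas the interaction of Atg12 was −0.51 ± 0.24. Rel, an NF-kB subunit, rose by 1.25 ± 0.17 in Wt, against 0.54 ± 0.17 in HetKO (limma adjusted p = 0.184), an interaction of −0.71 ± 0.24.

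Orm2, an acute-phase orosomucoid, was at 33.9, 39.6, 38.4 and 31.4 in periportal areas of Wt LFD, at 96.6, 53.8, 67.6 and 59.6 in Wt HFD, at 97.9, 45.8, 193 and 34.3 in HetKO LFD and at 54.5, 40.9, 40.8 and 46.1 in HetKO HFD. HetKO LFD mice 1 and 3 were high. The interaction was −1.60 ± 0.48. The serum amyloid genes Saa1 and Saa2, strongly induced in an acute-phase response, had the most negative interactions of all targets in either zone. Saa1 was at 54.1, 561, 679 and 36.2 in Wt LFD, at 651, 441, 1286 and 159 in Wt HFD, at 2207, 167, 5771 and 143 in HetKO LFD and at 432, 151, 75.6 and 179 in HetKO HFD. The same HetKO LFD mice 1 and 3 were the highest of all mice, and the 4 groups overlapped. The interaction of Saa1 was −3.66 ± 1.44 in periportal and −2.68 ± 1.25 in perivenous areas, and that of Saa2 −3.58 ± 1.41 and −2.89 ± 1.17. Saa1, Saa2 and Orm2 have near-identical copies, and their counts may be shared with them.

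In perivenous areas the most negative targets were Got1, Rela, Ctxn1, Sh3pxd2b, Saa2, Syvn1, Orm2, Pes1, Sesn3 and Cdk8. Got1, the cytosolic aspartate aminotransferase, was at 53.3, 53.4, 55.9 and 82.6 in Wt LFD, at 38.2, 38.7, 39.6 and 41.1 in Wt HFD, at 95.1, 111, 137 and 85.9 in HetKO LFD and at 42, 34.8, 58 and 40.2 in HetKO HFD. HetKO mice were above Wt mice on LFD and overlapped with them on HFD. The 1478 perivenous targets of middle mean level spanned 38.4 to 44.7 normalized counts. The part of the background signal in the HFD levels of Got1 was not tested. Got1 fell in both genotypes, with HFD differences of −0.60 ± 0.18 in Wt (limma adjusted p = 0.0139) and −1.28 ± 0.18 in HetKO (adjusted p = 0.00452) and an interaction of −0.68 ± 0.25 (adjusted p = 0.797). In periportal areas its interaction was 0.27 ± 0.45. Of the remaining negative targets, Rela, another NF-kB subunit, was at −0.60 ± 0.24, Syvn1, an ubiquitin ligase of the endoplasmic reticulum, at −0.43 ± 0.19, and Cdk8, a Mediator kinase, at −0.47 ± 0.21.

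Averaged over zones, 0 of 7394 targets were called (limma, smallest adjusted p = 0.592), with 272 (3.68%) higher and 294 (3.98%) lower at an unadjusted p under 0.05. The difference of the interaction between zones, perivenous minus periportal, also gave 0 calls (smallest adjusted p = 0.700), with 280 (3.79%) higher and 121 (1.64%) lower. Across targets the interactions of the zones correlated with r = 0.65 over 7394 targets, on the same mice. Abcc3, an exporter of bile acid conjugates, had an interaction of 0.29 ± 0.44 in periportal and 1.24 ± 0.46 in perivenous areas, one of the 5 highest zone differences. Prox1, Asl and Amdhd1, which breaks down histidine, were among the 5 lowest. Amdhd1 was at 0.72 ± 0.33 in periportal and −0.30 ± 0.23 in perivenous areas.

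Gene lists describe whether functional groups shared these values. In total 618 of 778 listed genes were measured, in 33 lists, and 0 members of any list passed the adjusted interaction test, so list counts below use an unadjusted p under 0.05 and stand against 4.41% of all periportal and 3.38% of all perivenous targets with a higher value. Since the interaction followed the level of the target, lists of abundant transcripts stand also against the 10.6% and 7.48% of targets that exceeded the LOQ in 24 or more AOIs, whose median interaction was 0.15 in either zone. Counts of members that fell in Wt stand against 15.7% of all targets in periportal and 17% in perivenous areas, and the targets with the highest levels had the lowest median HFD difference, as given above. Counts of members with an interaction above 0 stand against 2884 of all 7394 targets in periportal and 3339 in perivenous areas. Among targets that exceeded the LOQ in 24 or more AOIs, 1932 of 2883 and 2055 of 2982 were above 0.

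Amino acid breakdown genes fell in Wt, 32 of 36 in periportal and 28 of 36 in perivenous areas, against 15.7% and 17% of all targets, with median HFD differences of −1.22 and −1.02, while the medians in HetKO were −0.58 and −0.52. Their median interaction was 0.49 and 0.44, with 14 members higher and 0 lower in periportal areas and 10 higher and 2 lower in perivenous areas. In the fits on 8 mice each, 30 of the 36 members fell in periportal and 25 in perivenous areas of Wt. These counts stand against 11.8% and 11.1% of all targets. In HetKO 20 of the 36 fell in periportal and 26 in perivenous areas, against 4.61% and 8.99% of all targets. For the urea cycle list, 8 of 13 members in periportal areas fell in Wt and the median interaction was 0.44, with 4 higher. With Wt HFD mouse 1 as the only Wt HFD sample that median was −0.02. Cps1, which commits ammonia to urea, spanned in periportal areas of Wt 805 to 1965 on LFD and 139.9 to 425 on HFD, and of HetKO 733 to 1595 on LFD and 399 to 593 on HFD, with an interaction of 1.09 ± 0.43, and 1.40 without Wt HFD mouse 1 (limma adjusted p = 0.0404).

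In the gluconeogenesis list, 11 of 14 members fell in Wt in either zone, against 15.7% and 17% of all targets, and the median interaction was 0.51 in periportal and 0.56 in perivenous areas. Pck1, which forms phosphoenolpyruvate from oxaloacetate, was at 1432, 1553, 2433 and 2277 in periportal areas of Wt LFD, at 796, 479, 346 and 391 in Wt HFD, at 1917, 1033, 1984 and 1522 in HetKO LFD and at 719, 962, 979 and 921 in HetKO HFD. It was lower on HFD in all mice of either genotype, and Wt HFD mouse 1 lay among the HetKO HFD mice. Its interaction was 1.16 ± 0.35, and 1.40 without Wt HFD mouse 1 (limma adjusted p = 0.0157). With that mouse as the only Wt HFD sample, the median interaction of the list was −0.09 in periportal and −0.07 in perivenous areas.

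Glycogen and glycophagy genes stand closest to the disrupted gene. Of 17 listed, 13 were measured, 9 fell in Wt in either zone, and the median interaction was 0.43 in periportal areas, with 2 higher and 1 lower, and 0.32 in perivenous areas, with 2 higher and 0 lower. Gys2, the liver glycogen synthase, was at 73.5, 70.5, 141 and 186 in Wt LFD, at 70.9, 30.5, 36.8 and 37.9 in Wt HFD, at 70.8, 96.4, 63 and 149 in HetKO LFD and at 62.8, 89.6, 77 and 72.4 in HetKO HFD, in periportal areas. The groups overlapped and the interaction was 1.09 ± 0.42. Ppp1r3b, which brings a phosphatase to glycogen, had a perivenous interaction of 0.69 ± 0.26, and Slc2a2, the glucose transporter GLUT2, 0.83 ± 0.32. Of 31 measured lysosome and autophagy genes, 14 fell in periportal and 15 in perivenous areas of Wt, against 15.7% and 17% of all targets, with median interactions of 0.17 and 0.25 and 2 higher and 0 lower in either zone. Lamp2, a lysosomal membrane protein, and Npc1, which exports lysosomal cholesterol, were the leading periportal members at 0.72 ± 0.34 and 0.51 ± 0.24.

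All 33 measured genes of fatty acid oxidation and peroxisomes had an interaction above 0 in perivenous areas, with 11 higher, 0 lower and a median of 0.61, and 31 of 33 were above 0 in periportal areas, with 7 higher. In Wt 23 of them fell in perivenous areas, and the median HFD difference was −0.75 in Wt and −0.17 in HetKO. Slc27a2, a fatty acid transporter with acyl-CoA synthetase activity, had a perivenous interaction of 1.08 ± 0.35, which was −0.01 with Wt HFD mouse 1 alone.

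Lipogenic genes had a median interaction of 0.55 in periportal and 0.31 in perivenous areas, and Mlxipl, which encodes the glucose-sensing factor ChREBP, was at 0.75 ± 0.25 and 0.77 ± 0.26. Lipid droplet genes had medians of −0.13 and 0.17 and cholesterol synthesis genes −0.18 and −0.13, with 0 higher and 1 lower of 18 in periportal and 1 higher and 3 lower in perivenous areas. Bile acid genes had medians of 0.36 and 0.31. For cytochrome P450 genes of drug and steroid metabolism, 16 of 18 fell in perivenous areas of Wt, against 17% of all targets, and the median interaction there was 0.53, with 8 higher and 0 lower. Cyp2c29, a perivenous drug-oxidising enzyme, was at 543, 642, 801 and 757 in Wt LFD, at 190.2, 157, 309 and 129 in Wt HFD, at 455, 585, 599 and 429.9 in HetKO LFD and at 302, 269, 205 and 303 in HetKO HFD. The HFD groups overlapped, and its perivenous interaction of 0.92 ± 0.31 was 0.89 with Wt HFD mouse 1 alone. Pyrimidine and purine breakdown, to which Upp2 belongs, had 5 of 7 members higher in periportal areas with a median of 0.83, against 1 of 7 in perivenous areas with a median of 0.35. Dpys, which opens dihydropyrimidine rings, was at 1.08 ± 0.31 and Uox, which oxidises urate, at 1.27 ± 0.41 in periportal areas.

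Secreted plasma protein genes, among the most abundant transcripts of hepatocytes, had medians of 0.59 and 0.62, with 10 of 28 higher in periportal areas. Alb was at 5909 to 28231 in periportal areas of Wt HFD and at 24531 to 39505 in HetKO HFD, with an interaction of 1.27 ± 0.46. All 74 measured cytosolic ribosomal protein genes were above 0 in periportal areas, with 10 higher and a median of 0.56, and 71 of 74 fell in Wt. Of the 2883 targets that exceeded the LOQ in 24 or more periportal AOIs, 1932 were above 0. The 1479 targets with the highest level had a median interaction of 0.33 there. Oxidative phosphorylation genes had medians of 0.37 and 0.38. Acute-phase genes stood opposite, with 0 of 19 higher and 4 lower in either zone and medians of −0.39 and −0.23, against 6.45% and 2.23% of all targets with a lower value and 1.70% and 0.537% of those that exceeded the LOQ in 24 or more AOIs. Without Wt HFD mouse 1 their medians were −0.18 and −0.14, a difference of −0.07 and −0.06 from the medians of all targets. Among markers of other cells, Kupffer cell genes had medians of 0.47 and 0.10, stellate cell genes 0.12 and 0.02 and endothelial genes 0.07 and 0.24. Of these, Ecm1 had the smallest stellate p, with 1.17 ± 0.37 in periportal areas.

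The list medians depended on scaling and on Wt HFD mouse 1. After quantile normalization, which brought the median of all targets to 0.00 and −0.01, the median for fatty acid oxidation was 0.54 and 0.57, for amino acid breakdown 0.38 and 0.31, for ribosomal proteins 0.11 and 0.06 and for secreted plasma proteins 0.10 and 0.09. Scaled to nuclei, the periportal list medians were below 0 for fatty acid oxidation (−0.29), amino acid breakdown (−0.29) and ribosomal proteins (−0.22), each still above the −0.84 of all targets. With the negative probe subtracted, the median of all targets was 0.57 and 0.50 and that of acute-phase genes −0.24 and 0.08. With Wt HFD mouse 1 as the only Wt HFD sample, the medians were −0.07 and −0.18 for fatty acid oxidation, −0.08 and −0.08 for amino acid breakdown and −0.33 and −0.30 for ribosomal proteins, against 0.37 and −0.21 for pyrimidine and purine breakdown, 0.13 and 0.27 for cytochrome P450 genes and −0.83 and −0.72 for acute-phase genes.

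**Figure D5:**
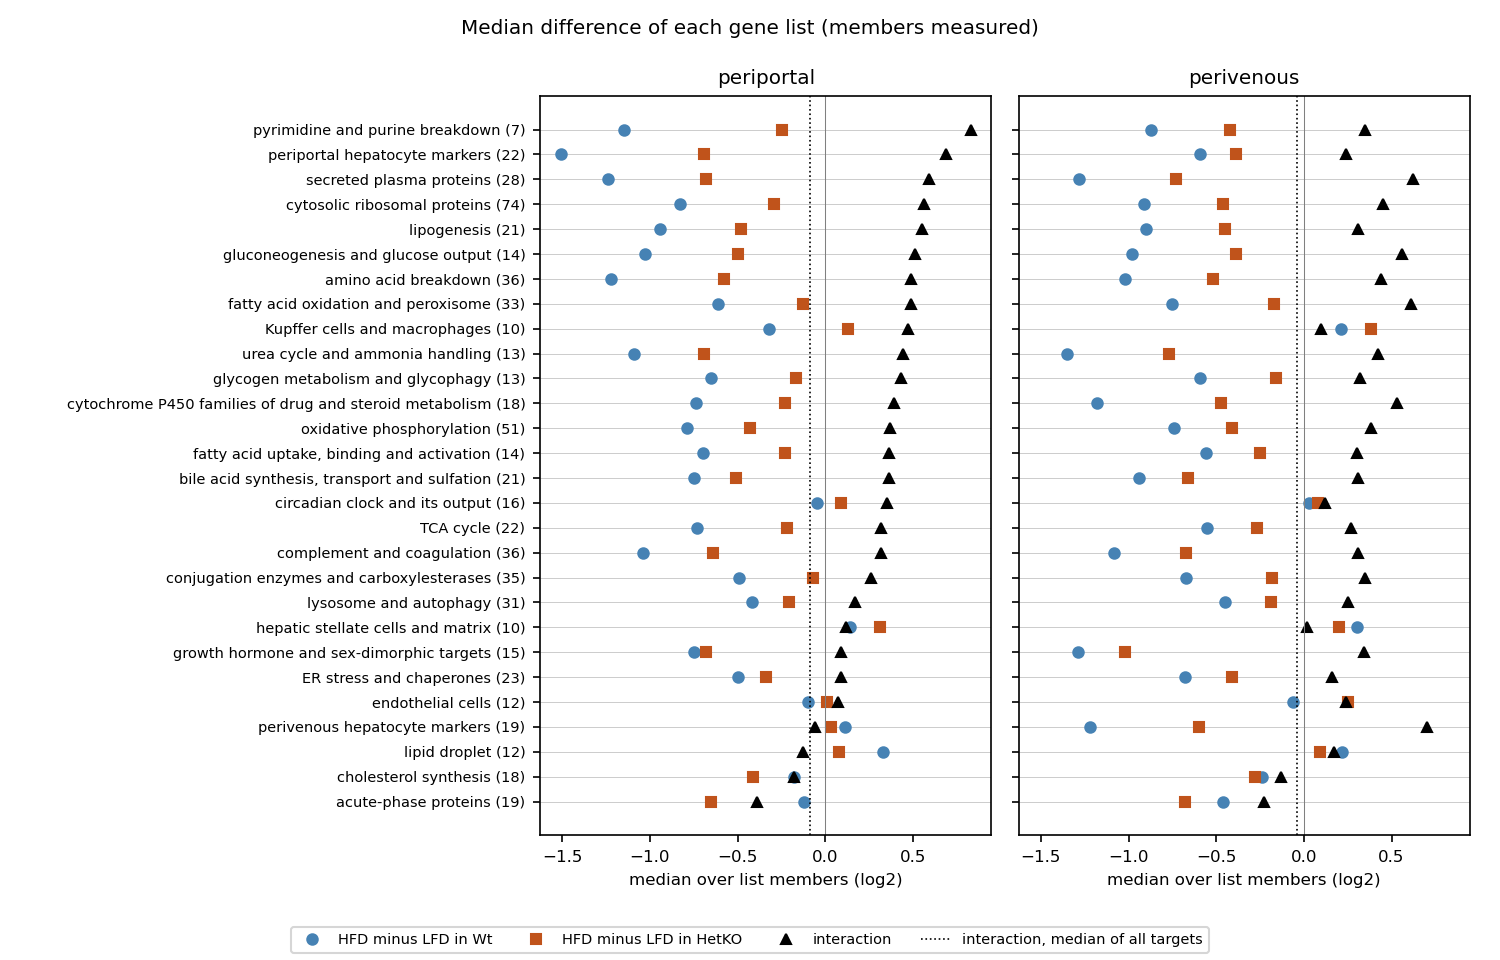
Median HFD difference in Wt (circles) and in HetKO (squares) and median interaction (triangles), log2, of each gene list with at least 5 measured members, in periportal and perivenous areas. For most metabolic lists the HetKO median lies between the Wt median and 0, as for amino acid breakdown at −1.22 in Wt and −0.58 in HetKO in periportal areas, and acute-phase genes have a negative interaction.

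Genes named in the study's comparison of genotypes were Etnppl, Otc, Serpina6, Gpcpd1, Aldh6a1, Ugp2, Gm29758 and Bcl6, and 0 passed the adjusted interaction test. Etnppl, a phospholyase of phosphoethanolamine, was at 134, 139, 75.3 and 304 in periportal areas of Wt LFD, at 50.8, 56.2, 36.6 and 55.1 in Wt HFD, at 106, 176, 74.4 and 216 in HetKO LFD and at 62, 142, 121 and 108 in HetKO HFD. All HetKO HFD mice were above all Wt HFD mice, and the interaction was 1.19 ± 0.49. In perivenous areas it was above the LOQ in 3 of 48 AOIs. Gpcpd1, a glycerophosphocholine phosphodiesterase, was at 129.7, 146, 89.8 and 166 in perivenous areas of Wt LFD, at 60.4, 37.1, 41.5 and 45.6 in Wt HFD, at 129, 113, 173 and 146 in HetKO LFD and at 83.5, 83.7, 79.7 and 106 in HetKO HFD. The HFD groups did not overlap, and both diets separated within each genotype, with an interaction of 0.84 ± 0.27 in perivenous and 0.11 ± 0.28 in periportal areas.

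Ugp2, which makes UDP-glucose for glycogen synthesis, had interactions of 0.85 ± 0.34 and 0.79 ± 0.35, Otc of the urea cycle 0.84 ± 0.35 and 0.80 ± 0.33, and Serpina6, the corticosteroid-binding globulin, 1.12 ± 0.42 and 0.86 ± 0.35. Aldh6a1, of valine breakdown, was at 0.45 ± 0.34 and 0.90 ± 0.31. Bcl6, a transcriptional repressor, was above the LOQ in 12 and 16 of 48 AOIs, with values of 0.97 ± 0.40 and 1.22 ± 0.46. Gm29758 was at −0.33 ± 0.34 and −0.29 ± 0.40. On HFD, HetKO and Wt mice did not overlap in at least 1 zone for all of these but Serpina6 and Bcl6. Of all targets, 4.40% did not overlap in periportal and 5.17% in perivenous areas. Each of these shares is for a single zone, and the share of all targets for at least 1 zone, which cannot be lower, is not given. The study chose these genes on these samples, so they are not independent evidence of a genotype difference.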

How the data were processed

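Tags of the GeoMx mouse whole-transcriptome probes were counted by the authors after duplicate removal (GeoMx NGS Pipeline 2.3.3.10, mm10). The deposited signal values were counts divided by a factor per AOI, since the third quartile over targets was 60.2045 in every AOI, although the methods describe scaling to nuclei. They were whole multiples of 1 read, within 0.01 read, for 99.95% of values, and 5 targets were not whole in at least 1 AOI. Also deposited were deduplicated read counts, nuclei, the percent sequencing saturation and negative-probe signal per AOI. A further 8 columns of values per AOI were not used. Values were averaged as log2(value + 1) over 3 AOIs per mouse and zone.

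A linear model with a mean per group (4 groups of 4 mice) was fitted to all 7394 gene targets per zone with limma 3.58.1 (R 4.3.3), with Benjamini-Hochberg adjustment over all targets and a threshold of 0.05. Alternatives used edgeR 4.0.16 and DESeq2 1.42.0 on recovered reads, other scalings, filters and spreads, and each mouse left out. The fits were tested on simulated data. Named targets were the 10 most positive and 10 most negative interaction statistics per zone among targets that exceeded the LOQ in 24 or more of 48 AOIs, 5 of each for the zone average and zone difference, given markers, genes of the study's genotype comparison and the 2 members of each list with the smallest p. Not every target that met this rule is reported here. Egfr and Ces3b, and the sequences shown, were chosen after values were seen. The members and lists were chosen with earlier results of these data known. Separate mice are the replicates.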

Additional observations from a re-analysis of the deposited data

Results flagged for a closer look

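Of 424 groups of 4 mice, 42 held a mouse whose distance from the nearest other mouse, divided by the range of the group, was above Dixon's critical value, where chance gives about 5%. Wt HFD mouse 1 accounted for 15 of the 42 and other mice for 27. Its periportal levels were the highest of its group for Acsl1 (99.1 normalized counts), Pbld2 (99.4), Ephx2 (255), Mlxipl (158), Clec4f (105), Dbp (99.6), Ugp2 (87.4) and Amdhd1 (138), and the lowest for Reg3d (60.9). Its perivenous levels were the highest for Srebf1 (127), Slc2a2 (92.6), Ppp1r3b (94.6) and Dhcr7 (68.3). Its share of targets above the LOQ stood apart in periportal (45.2%) and perivenous (29.6%) areas.

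Wt LFD mouse 4 was the highest of its group for periportal Asl (725) and Hpd (949) and for perivenous Got1 (82.6), Slc2a2 (229) and Asl (183). Wt LFD mouse 1 was the lowest for periportal Prox1 (88.7) and Serpina3k (2479) and perivenous Pex11a (90.7), Wt LFD mouse 2 the lowest for perivenous Nr1i3 (174) and Wt LFD mouse 3 the highest for periportal Acsl1 (205).

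HetKO LFD mouse 4 was the highest for periportal Acsl1 (219.5) and Srebf1 (295) and the lowest for perivenous Rela (36.9), and its log2 number of nuclei in perivenous AOIs was the highest (9.33). HetKO LFD mouse 1 was the lowest for perivenous Nr1i3 (110.3) and Alb (14359), and its sequencing saturation was 75.3% and 66.6%. HetKO LFD mouse 2 was the lowest for periportal Ahcy (449.5) and Amdhd1 (132) and HetKO LFD mouse 3 for periportal Ecm1 (52.9). Among HetKO HFD mice, mouse 2 was the highest for periportal Upp2 (135) and the lowest for perivenous Aldh6a1 (69.1), mouse 3 the lowest for perivenous Acsl1 (126), Slc27a2 (398) and log2 nuclei (7.04), and mouse 4 the highest for perivenous Gpcpd1 (106).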

How the results depend on the processing

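The count of interaction calls was 0 in either zone by limma, edgeR and DESeq2. It was 2 in periportal areas scaled by nuclei (Saa1 and Saa2, both lower), also 2 for the zone average, and 124 and 26 (periportal and perivenous) with all AOIs and the mouse as a random block. Weights per mouse, Wt HFD mouse 1 alone and fits on 8 mice each were chosen after seeing the data, and weights gave 108 and 18, mouse 1 alone 0 and 2. With 1 mouse left out the counts ranged from 0 to 270 and from 0 to 60, and for the zone average from 0 to 286, each highest without Wt HFD mouse 1. Mice of the same number had correlations from −0.56 to 0.59 after group means were removed. Mice of different numbers were not compared, so these values cannot show whether the numbers pair the mice. With the mouse number as the replicate block, 0 targets were called in either zone, 726 and 388 at an unadjusted p under 0.05. Slide could not be fitted as a block because each slide held 1 diet, so it was not run. Why these settings differ was not tested.

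The count of HFD calls in HetKO, 2 in each zone, was in periportal areas 10 with Wt HFD mouse 1 alone, 4 for targets that exceeded the LOQ in 10 or more of 96 AOIs, 380 with the random block, 598 on 8 mice, 4 with log2 of the mean, 1 with the negative probe subtracted, 1 with pseudocount 10, 0 after quantile normalization, 0 with the replicate block, 233 scaled by nuclei, 0 with signal over the negative probe as covariate and 1457 with weights. In perivenous areas it was 338 with mouse 1 alone, 5 for targets above the LOQ in 48 or more of 96 AOIs, 814 with the random block, 1609 on 8 mice, 4 with log2 of the mean, 0 with the negative probe subtracted, 6 with pseudocount 10, 1 after quantile normalization, 1 with the replicate block, 0 by nuclei, 1 with the covariate and 2489 with weights. With 1 mouse left out it ranged from 0 to 25 and from 1 to 466. In Wt the count was 1 and 7 with mouse 1 alone, 1369 and 1451 with the filter at 48 AOIs, 1710 after quantile normalization (periportal), 1596 on 8 mice (perivenous), 71 and 1 by nuclei and 1 and 54 with the covariate, and with 1 mouse left out from 1992 to 3724 and from 1736 to 3826.

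HetKO against Wt on HFD, 0 in either zone, was 530 and 542 with the random block, 42 and 119 with the negative probe subtracted, 38 and 65 after quantile normalization, 1 with the covariate (periportal), 911 and 1080 with weights and 6 with mouse 1 alone (perivenous). With 1 mouse left out it ranged from 0 to 983 and from 0 to 824, highest without Wt HFD mouse 1. On LFD it was 3 and 1 by nuclei, 3 with the random block (perivenous) and 0 to 1 with 1 mouse left out.

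Interactions that changed sign with Wt HFD mouse 1 alone were, in periportal areas, Abcc3 (−0.53), Amdhd1 (−0.04), Clec4f (−0.18), Dcn (−0.27), Lamp2 (−0.25) and Rpl4 (−0.18), and in perivenous areas Alb (−0.44), Asl (−0.23), Azgp1 (−0.04), Rpl22 (−0.13) and Slc27a2 (−0.01). Scaled by nuclei, where the periportal median of all targets was −0.84, those of Abcc3 (−0.47), Amdhd1 (−0.06), C1qa (−0.17), Clec4f (−0.15), Cpt2 (−0.16), Dcn (−0.10), Gaa (−0.47), Lamp2 (−0.06), Mlxipl (−0.03), Npc1 (−0.26) and Slc37a4 (−0.14) were below 0 in periportal areas. With the covariate periportal Abcc3 (−0.27) and Lamp2 (−0.05) were below 0, and perivenous Alb was at 0.00 after quantile normalization. Of the other values of genes and technical measures under an alternative, 3014 kept direction and side of the threshold and 120 passed it.

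Technical measures had interactions that ranged, with 1 mouse left out, from −0.715 to 0.0993 for log2 reads and from −0.509 to 0.0446 for log2 nuclei (perivenous), from −0.0218 to 5.16 and from −0.0225 to 7.95 for saturation, and from −2.50 to 11.7 percentage points for the periportal share above the LOQ. Of 7394 targets, 4511 exceeded the LOQ in fewer than 24 of 48 periportal AOIs.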
